A study of Mus musculus with 8 samples.

Results

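Mouse blastocysts that had been vitrified and thawed in media with melatonin were compared with blastocysts that had never been frozen. Every gene that reached 1 FPKM in at least 2 of the 8 libraries of the series entered the comparison, which kept 10755 of 19688 genes and left out 8933. FPKM are fragments per kilobase of transcript, scaled to the size of the library. The melatonin group held 3 libraries of blastocysts cooled to a glass-like state and warmed again, with 1e-10 M melatonin in the media of both steps. Fresh blastocysts, the control, gave 2 libraries, and the series also holds 3 libraries of blastocysts vitrified without melatonin. The labels give neither strain, sex nor embryo age, and do not say whether a replicate biosample was a single embryo, a pool or a culture. All p-values therefore measure the spread between these samples, which may be technical. Because fresh replicates 1 and 2 differed widely, the values of both are given side by side, in the order of the labels' replicate numbers.

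A blastocyst has an outer trophectoderm, which pumps fluid into the cavity and later attaches to the uterus, and an inner cell mass that sorts into epiblast and primitive endoderm. Vitrification replaces water with cryoprotectant and cools so fast that no ice crystals form, and the embryo meets osmotic, thermal and oxidative stress on the way down and back. Melatonin is a hormone of the pineal gland that scavenges oxygen radicals and signals through the receptors Mtnr1a and Mtnr1b, which are not analysed here.

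All 5 libraries expressed the trophectoderm markers Krt8 and Cdx2, and the pluripotency gene Pou5f1 at 13.4 to 30.3 FPKM. The inner cell marker Sox2 was low, at 0.0973 FPKM in fresh replicate 1 and 0.482 in melatonin replicate 3. The keratin Krt8 was at 1646 and 2333 FPKM in fresh replicates 1 and 2 and at 3499, 2637 and 2967 in melatonin replicates 1 to 3, and Cdx2, the transcription factor that specifies trophectoderm, was at 18.6 to 27.0 FPKM. Estimated fragments per library ran from about 5800000 in fresh replicate 2 to about 10000000 in fresh replicate 1, with all others between. Fresh replicate 1 stood apart: transcripts of the mitochondrial genome took 11.3% of its summed FPKM and its 10 most abundant genes 16.7%, against 6.56% and 12.9% in fresh replicate 2 and 4.24% to 4.93% and 11.2% to 13.1% in the melatonin libraries. Markers of cells that could accompany an embryo were scarce. Those of cumulus cells (12 of 24 listed genes analysed) summed to 5.13 and 5.70 FPKM in fresh replicates 1 and 2 and to 2.96 to 6.70 with melatonin, while 11 fibroblast genes reached at most 2.59 and 10 blood cell genes at most 5.46. Sperm genes (11 analysed) summed to 4.70 and 5.17 FPKM in fresh and 8.17 to 10.3 in melatonin libraries. Most of each sum came from Odf2, at 3.19 and 3.92 in fresh and 8.73, 6.83 and 7.34 in melatonin libraries. The part of the sperm genes in the results was not tested.

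The comparison asks what separates blastocysts that went through vitrification with melatonin from fresh ones. Differences are given as means of log2(FPKM + 1) in the melatonin minus the fresh group, with their standard error (SE), which understates ratios for genes of low expression. Nanog, the pluripotency factor, lay 2.74 ± 0.33 above fresh, the gap junction gene Gja1 2.04 ± 0.36 and the mitotic kinase Plk1 1.17 ± 0.20. At the other end, the stress factor Cebpb was at -1.97 ± 0.36, the carbonic anhydrase Car2 at -3.01 ± 0.56, and most mitochondrially encoded and ribosomal protein genes lay below both fresh libraries. In limma fitted across all 10755 genes, 0 genes (0.0%) had an adjusted p below 0.05, and the smallest adjusted p was 0.112. At an unadjusted p below 0.05, limma gave 1985 genes (1252 with a higher and 733 with a lower melatonin mean), where 538 are due by chance. In 2237 genes (20.8%) all 3 melatonin libraries lay above both fresh libraries, in 1447 (13.5%) they lay below both, and in 7071 the groups overlapped. These shares are the background against which each gene list is read. The median difference of all tested genes was 0.09, and 59.2% of genes lay above 0. Scaling that removed this shift evened out the directions: with median-ratio scaling 1828 genes lay above and 1848 below both fresh libraries, and with quantile normalization 1767 and 1824. The genes at an unadjusted p below 0.05 then split into 923 and 1037, and 885 and 877.

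Distances to the single fresh libraries were unequal. The melatonin mean was at least 1 log2 unit away from fresh replicate 1 in 1163 genes (10.8%) and from fresh replicate 2 in 417 (3.88%). The fresh replicates differed from each other by that much in 1092 genes (10.2%), and pairs of melatonin libraries in 423 to 535 (3.93% to 4.97%). These pairs are single libraries, whereas the melatonin mean averages over libraries and varies less. The counts are therefore not measured alike. The median difference of all genes was 0.17 against fresh replicate 1 and 0.01 against fresh replicate 2. Of the genes at least 1 log2 unit from a fresh library, 102 lay that far above both and 59 that far below both. Another 686 were that far above fresh replicate 1 but not replicate 2, against 119 the other way round, and 316 were that far below fresh replicate 1 but not replicate 2, against 137. Without fresh replicate 2, limma called 565 genes (415 higher, 150 lower), and without fresh replicate 1 it called 1, but in either fit the lone fresh library is only assumed to vary like the other groups.

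**Figure D1:**
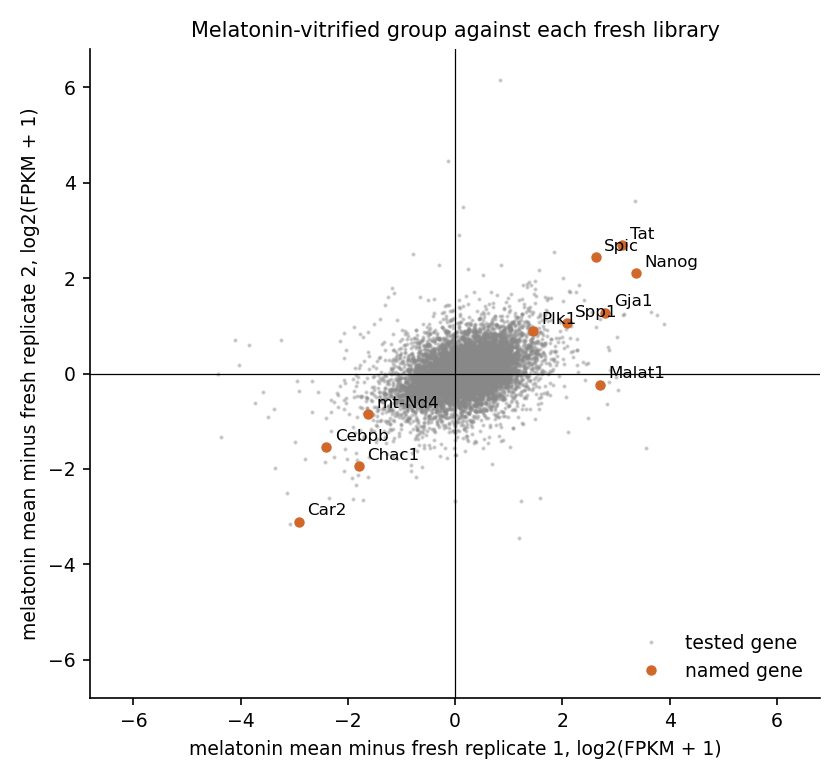
Each grey point is 1 of 10755 tested genes, placed by the melatonin-vitrified mean minus fresh replicate 1 (horizontal) and minus fresh replicate 2 (vertical), both in log2(FPKM + 1), with 11 named genes in orange. The cloud is wider along the horizontal axis (SD 0.64) than along the vertical one (SD 0.47), and Malat1 lies 2.70 above fresh replicate 1 but -0.23 from fresh replicate 2.

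Among genes of at least 5 FPKM whose groups did not overlap, 8 genes per direction with the smallest p stood out, none of which passed (adjusted p 0.112 to 0.116, limma with Benjamini-Hochberg adjustment). Nanog, a transcription factor that maintains the pluripotent epiblast (chromosome 6, 122707489 to 122714633, mm10), was at 3.49 and 9.795 FPKM in fresh replicates 1 and 2 and at 37.01, 46.8 and 54.6 in melatonin replicates 1 to 3, a difference of 2.74 ± 0.33 (SE). Every melatonin library thus held several times the Nanog level of either fresh library. Spic, an ETS family transcription factor, was at 0.756 and 0.991 FPKM against 14.99, 8.66 and 7.18 (2.53 ± 0.35). Tat, the tyrosine aminotransferase of amino acid breakdown, was listed at 0 in fresh replicate 1 and at 0.337 FPKM in replicate 2, against 9.92, 13.5 and 3.104 with melatonin. For both genes the fresh libraries were below 1 FPKM and all melatonin libraries above 3 FPKM. Both passed the filter only through the vitrified and melatonin libraries, so their rise over fresh was partly set by the filter.

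The other 5 genes of this side were Ccdc160, Pgm1 and the cell cycle genes Plk1, Kif20a and Ccnf. Ccdc160, a coiled-coil protein gene on chromosome X, was nearly equal in the fresh libraries at 16.4 and 16.7 FPKM and lay at 38.9, 47.1 and 44.6 in the melatonin libraries (1.34 ± 0.18). Pgm1, a gene of the phosphoglucomutase family on chromosome 5, was at 9.598 and 11.3 against 24.2, 30.02 and 20.99 FPKM (1.18 ± 0.20). Ccnf, the F-box cyclin, was at 34.7 and 33.5 against 76.7, 83.8 and 58.7 FPKM (1.06 ± 0.18). In Ccdc160 and Ccnf the fresh libraries were closer to each other than any melatonin library was to either of them.

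On the lower side, Cebpb, a transcription factor of stress and differentiation (chromosome 2, 167688915 to 167690418), was at 70.6 and 38.5 FPKM in the fresh and 15.2, 8.596 and 15.2 in the melatonin libraries (-1.97 ± 0.36). Car2, a cytosolic carbonic anhydrase, was at 24.5 and 28.1 against 5.22, 1.45 and 1.53 FPKM (-3.01 ± 0.56). Both groups of Car2 values were far apart, since the highest melatonin library held 5.22 FPKM and the lowest fresh library 24.5. The other genes were the endoplasmic reticulum protein Tmem147 (322 and 292 against 157, 148 and 173 FPKM), the nucleosome-binding protein Hmgn1 (349 and 363 against 232, 208 and 215), the Polycomb-associated Yaf2 (20.7 and 15.4 against 8.14, 7.39 and 4.203), the methyltransferase Mettl9 (19.1 and 25.1 against 12.1, 9.99 and 11.4) and the mitochondrial subunits mt-Nd4 and mt-Nd5, described further down. Differences of these 4 nuclear genes ran from -0.70 for Hmgn1 to -1.36 for Yaf2. Since the 16 genes were chosen for groups that do not overlap, leaving out a library cannot change their direction.

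**Figure D2:**
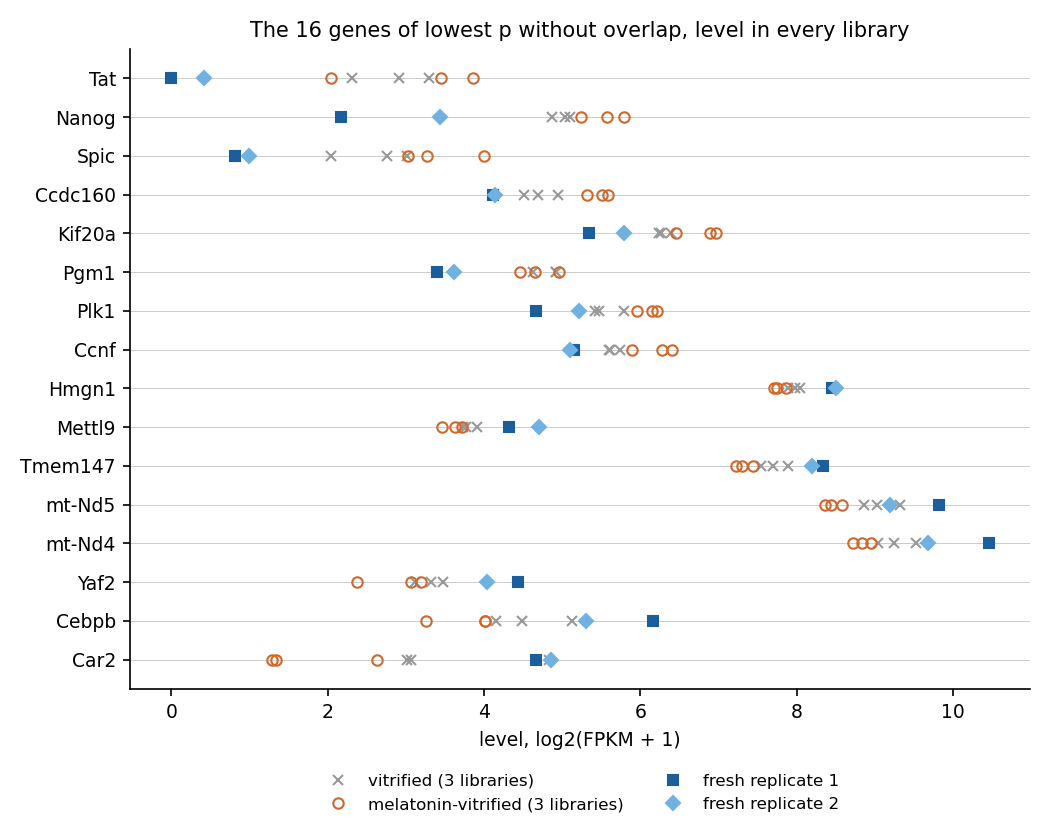
Level of the 16 genes in log2(FPKM + 1), with every library as a point: fresh replicate 1 (square), fresh replicate 2 (diamond), vitrified (crosses) and melatonin-vitrified (circles). In each gene the 3 melatonin circles lie on 1 side of both fresh points, and for Nanog they lie between 37.0 and 54.6 FPKM against 3.49 and 9.79.

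Genes that carry cells through mitosis had the highest median of all lists. Of 34 tested members, 24 (70.6%) lay above both fresh libraries in every melatonin library and 0 below, against 20.8% and 13.5% of all genes. Their median difference was 0.73 (0.92 against fresh replicate 1 and 0.48 against replicate 2), where that of all genes was 0.09 (0.17 and 0.01). None of the 34 passed the test, and 23 had an unadjusted p below 0.05. With median-ratio scaling the count was 22 and the median 0.63, and with quantile normalization 25 and 0.64. Members named here and in the lists that follow, beyond the 1 of smallest p in each list, were picked after their values were seen.

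Plk1, the kinase that drives entry into mitosis, was at 24.3 and 36.04 FPKM in fresh and 73.4, 69.8 and 61.4 in melatonin libraries (1.17 ± 0.20). Its partners in cell division showed the same order. Ccnb1, the cyclin that activates Cdk1, was at 23.1 and 38.2 against 58.1, 76.2 and 63.3 FPKM (1.11 ± 0.25), and Kif20a, a kinesin of cytokinesis, at 39.5 and 54.2 against 118, 125 and 87.2 (1.21 ± 0.20). Cdc20, the activator of the anaphase-promoting complex, was at 159.5 and 167 against 344, 359.8 and 278 FPKM (0.99 ± 0.19). Aurka, the kinase of the spindle poles, was at 121 and 117 against 171, 246 and 187 FPKM (0.74 ± 0.19). Fresh replicates agreed closely for Cdc20 and Aurka, and neither overlapped with any melatonin library. Other members rested more on fresh replicate 1: the cytokinesis scaffold Anln was at 5.46 and 32.3 FPKM in the fresh and 47.8, 48.01 and 42.8 in the melatonin libraries, and the proliferation antigen Mki67, at 0.943 and 6.4 against 5.06, 4.54 and 6.11, overlapped. Birc5, of the chromosomal passenger complex, and Cenpa, the centromeric histone, overlapped, with differences of -0.02 and -0.02. Cdk1 itself was at 36.1 and 44.3 against 42.7, 56.01 and 49.2 FPKM and overlapped as well.

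Many mitotic genes carry a cell cycle homology region near their start, the letters TTTGAA, where repressor complexes bind in resting cells. RefSeq promoters (GRCm38.p6, from 250 bases before to 50 after each start) matched 28 of the 34 members. The letters occurred on either strand in 20 of these 28 genes (71.4%), or 23 of their 31 promoters (74.2%), and in 17.9% of all 32851 promoters. The match describes letters and not bound sites. Cdc20 and Prc1, a microtubule bundler at 2.74 and 7.495 FPKM in fresh and 10.1, 17.3 and 13.3 in melatonin libraries, are shown because both lay above fresh in every library and carry the letters before their start, in capitals. The 250 bases before the start run 5′ to 3′ along the gene, on the minus strand at chr4:118437344-118437593 for Cdc20 and on the plus strand at chr7:80294226-80294475 for Prc1.
Cdc20: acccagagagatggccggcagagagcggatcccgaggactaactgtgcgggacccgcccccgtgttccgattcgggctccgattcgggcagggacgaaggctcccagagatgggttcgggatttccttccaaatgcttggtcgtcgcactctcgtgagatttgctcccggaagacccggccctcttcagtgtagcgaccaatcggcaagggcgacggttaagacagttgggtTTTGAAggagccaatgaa
Prc1: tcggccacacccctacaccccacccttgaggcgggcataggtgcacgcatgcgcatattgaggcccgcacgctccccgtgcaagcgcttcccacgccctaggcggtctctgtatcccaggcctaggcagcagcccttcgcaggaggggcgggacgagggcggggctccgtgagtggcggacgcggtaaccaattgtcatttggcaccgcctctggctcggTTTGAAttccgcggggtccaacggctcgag

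Genes of the integrated stress response mostly lay below fresh. This pathway lowers general translation when amino acids are short or proteins misfold, and lets the transcription factor Atf4 switch on amino acid synthesis and import. Of 27 tested members, 0 lay above both fresh libraries and 17 (63.0%) below both, against 20.8% and 13.5% of all genes. The median difference of the list was -0.61 (-0.55 against fresh replicate 1 and -0.65 against replicate 2). Without melatonin replicate 2 the median was -0.39. No member passed, and 13 had an unadjusted p below 0.05 in this direction. With quantile normalization 14 lay below both, and the median was -0.58.

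Atf4 was at 142 and 158 FPKM in the fresh and 121, 81.3 and 111 in the melatonin libraries (-0.53 ± 0.18). Among its targets, Chac1, which degrades glutathione (chromosome 2, 119351229 to 119354381), was at 37.8 and 41.8 against 8.55, 4.68 and 24.9 FPKM (-1.86 ± 0.50). Melatonin replicate 3 was the highest of its group in Chac1 and still lay below both fresh libraries. Of the 3 serine synthesis enzymes on the list, Phgdh overlapped at 62.2 and 55.9 against 53.7, 55.2 and 63.9 FPKM (-0.04 ± 0.17). Psph was at 43.8 and 35.03 against 19.5, 15.8 and 21.99 FPKM (-1.01 ± 0.20), and Psat1 at 227 and 181 against 174, 75.1 and 118 (-0.81 ± 0.31), both below fresh. The arginine transporter Slc7a1 was at 7.35 and 8.95 against 3.43, 1.65 and 3.41 FPKM (-1.29 ± 0.30). Atf3, a factor induced by stress, was at 3.04 and 2.08 against 1.04, 0.398 and 0.331 FPKM (-1.18 ± 0.29). The proapoptotic factor Ddit3 overlapped, at 19.5 and 122 against 33.3, 14.9 and 64.3 FPKM, as did Trib3, a pseudokinase that restrains Atf4, at 57.5 and 101 against 61.8, 11.4 and 50.3. The upstream kinase Eif2ak3 overlapped at 0.617 and 2.25 against 3.101, 1.82 and 3.16 FPKM.

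Atf4 and a C/EBP partner bind a composite element with the letters TGATGNAAN. It occurred on either strand in 3.95% of all RefSeq promoters. Among the stress response genes it occurred in 6 of their 27 promoters (22.2%), or 6 of the 24 matched genes (25%). The 250 bases before the start of Chac1 (plus strand, chr2:119350992-119351241) and Atf3 (minus strand, chr1:191183334-191183583) are shown as 2 of these 6, with the element, here on the opposite strand, in capitals.
Chac1: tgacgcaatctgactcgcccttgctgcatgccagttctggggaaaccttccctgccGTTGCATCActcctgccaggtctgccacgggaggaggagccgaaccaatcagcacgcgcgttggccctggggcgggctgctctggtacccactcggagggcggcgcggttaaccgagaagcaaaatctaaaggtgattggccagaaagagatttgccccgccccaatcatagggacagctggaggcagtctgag
Atf3: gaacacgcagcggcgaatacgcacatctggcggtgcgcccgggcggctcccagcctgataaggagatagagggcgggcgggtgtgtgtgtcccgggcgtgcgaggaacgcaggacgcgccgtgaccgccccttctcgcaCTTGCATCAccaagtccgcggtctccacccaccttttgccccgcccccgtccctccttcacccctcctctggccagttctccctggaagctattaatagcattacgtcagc

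**Figure D3:**
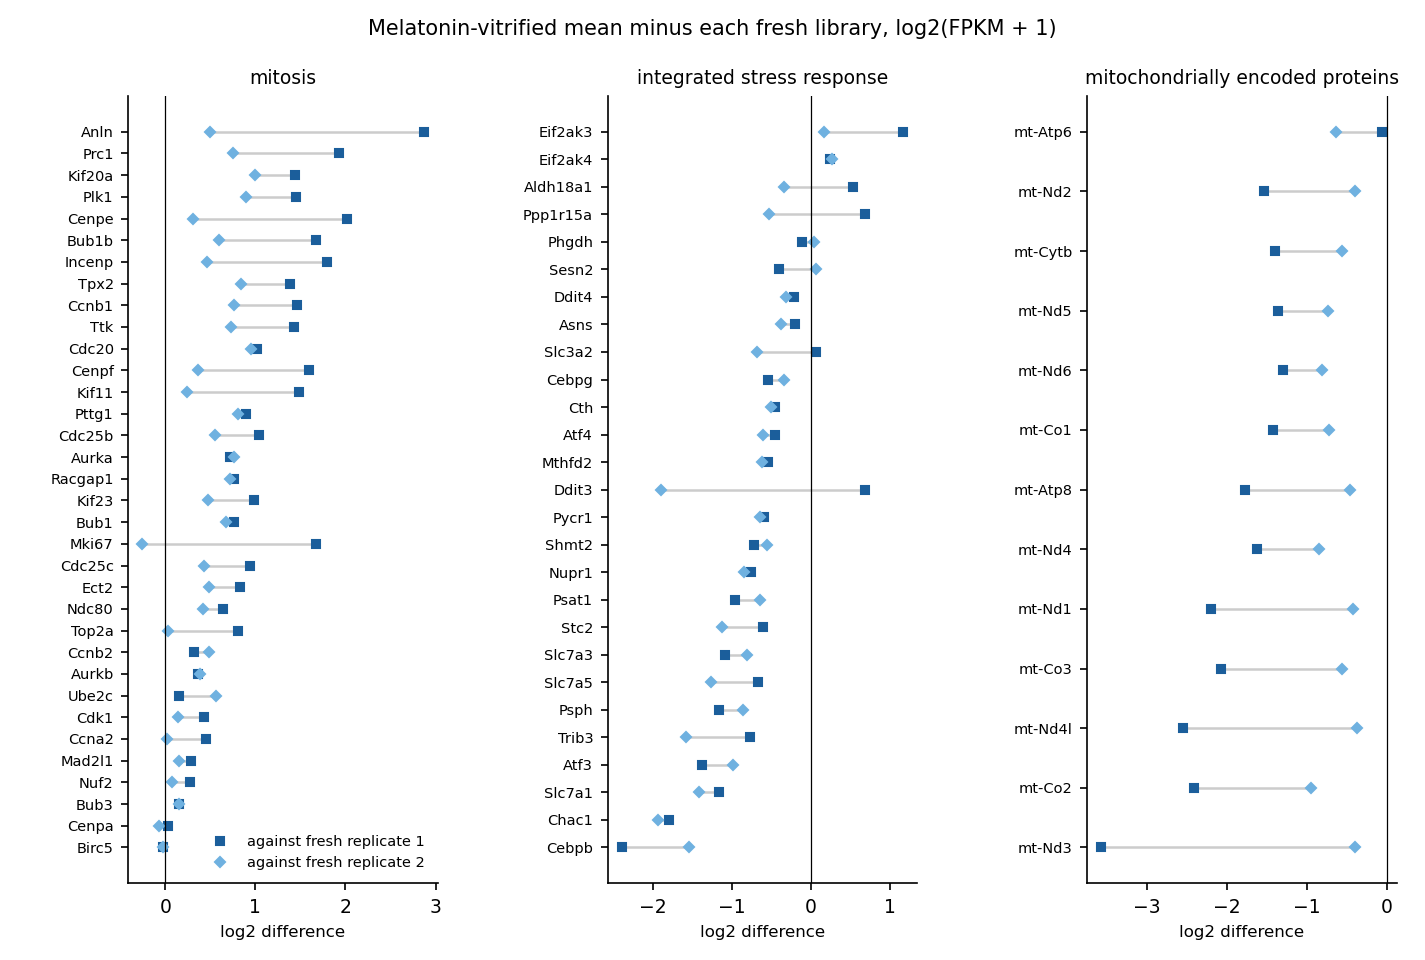
Melatonin-vitrified mean minus fresh replicate 1 (squares) and minus fresh replicate 2 (diamonds), in log2(FPKM + 1), for the tested members of 3 lists. Mitotic genes lie mostly right of 0 and stress response genes mostly left of it, while mitochondrially encoded genes lie left of it with wide gaps between the fresh libraries, as in mt-Nd3 at -3.58 and -0.40.

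The mitochondrial genome encodes 13 subunits of the respiratory chain and ATP synthase. Of these, 12 (92.3%, against 13.5% of all genes) lay below both fresh libraries. Their median difference was -1.12, but -1.62 against fresh replicate 1 and -0.56 against replicate 2. The complex I subunits mt-Nd4 and mt-Nd5 came closest to the threshold. mt-Nd4 was at 1409 and 823 FPKM in the fresh and 458, 422 and 494 in the melatonin libraries (-1.24 ± 0.23), and mt-Nd5 at 907 and 588 against 347, 329 and 383 (-1.05 ± 0.21). mt-Co2, of cytochrome oxidase, was at 3502 and 1262 against 658, 626 and 687 FPKM (-1.68 ± 0.37). In these genes fresh replicate 2 lay between fresh replicate 1 and the melatonin libraries. The exception was mt-Atp6, of ATP synthase, at 3997 and 6003 against 4106, 3850 and 3619 FPKM, where melatonin replicate 1 lay above fresh replicate 1. It overlaps mt-Atp8 on the same strand, so reads of the overlap cannot be told apart. The part that the high mitochondrial share of fresh replicate 1 takes in these differences was not tested, and fresh replicate 2 also had a higher share (6.56%) than any melatonin library.

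Ribosomal protein genes formed the largest group on the lower side. Of 76 tested genes of the cytosolic ribosome, 66 (86.8%) lay below both fresh libraries and 1, Rps29, above, with a median of -0.58 (-0.73 and -0.41 against fresh replicates 1 and 2). Rpl13a, of the large subunit, was at 798 and 691 FPKM in the fresh and 439, 476 and 537 in the melatonin libraries (-0.62 ± 0.15). Many ribosomal protein genes have processed pseudogenes of near-identical sequence, so their levels are uncertain where the counting, which no source used here describes, could split reads. In the mitochondrial ribosome, which makes those 13 subunits, 26 of 76 (34.2%) lay below and 3 above both fresh libraries, with a median of -0.21 (-0.29 and -0.13), which was -0.12 without melatonin replicate 1 and -0.33 with median-ratio scaling. Mrpl53 stood out among them at 40.3 and 77.96 against 11.95, 10.1 and 13.1 FPKM (-2.18 ± 0.57). Nuclear subunits of complex I lay below both in 19 of 36 (52.8%), with a median of -0.27 (-0.36 and -0.24; -0.18 without melatonin replicate 1), and those of the remaining complexes and of ATP synthase in 14 of 39 (35.9%), with a median of -0.29 (-0.42 and -0.17; -0.14 with quantile normalization). Cox6a1, of cytochrome oxidase, was at 529.9 and 551 against 329, 389 and 363 FPKM (-0.59 ± 0.14), while the complex I subunit Ndufa12 was opposite, at 14.8 and 11.9 against 19.3, 21.7 and 26.7 (0.71 ± 0.19). Tfam, which packages mitochondrial DNA and starts its transcription, was at 13.1 and 14.4 against 11.6, 12.3 and 10.6 FPKM (-0.24 ± 0.20). Genes of mitochondrial biogenesis and dynamics had a median of 0.20 (0.31 and 0.10; -0.01 among genes of mean 5 FPKM or more). Of 31, 8 (25.8%) lay above and 4 (12.9%) below, near the 20.8% and 13.5% of all genes. The fission enzyme Dnm1l was at 17.5 and 29.7 against 41.97, 38.02 and 36.7 FPKM.

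Markers of the 3 cell lineages did not share a direction. In bulk samples, fewer cells of a type and less RNA per cell cannot be told apart. Of 24 epiblast and pluripotency genes, 11 (45.8%) lay above and 2 below both fresh libraries, against 20.8% and 13.5% of all genes. The list median of 0.58 was 0.86 and 0.34 against fresh replicates 1 and 2. After Nanog came Tdgf1, a coreceptor of Nodal, at 3.47 and 24.95 FPKM in the fresh and 54.8, 63.6 and 60.6 in the melatonin libraries (2.49 ± 0.56), and Dppa3, a maternal chromatin factor, at 481 and 1649 against 2037, 2150 and 2850 (1.38 ± 0.41). Pou5f1, which encodes OCT4, was at 13.4 and 30.3 against 27.9, 25.1 and 25.97 FPKM, above fresh replicate 1 and below replicate 2. Sox2 behaved likewise at 0.0973 and 2.76 against 2.18, 2.07 and 0.482 FPKM. Unlike Nanog, both therefore overlapped between the groups.

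For primitive endoderm the direction depended on the fresh library. The median of 24 genes was -0.21, but 0.34 against fresh replicate 1 and -1.09 against replicate 2, and -0.35 for the group with quantile normalization. Of the 24, 2 lay above and 9 (37.5%) below both, against 20.8% and 13.5% of all genes. The marker genes summed to 313 FPKM in fresh replicate 1, 527 in replicate 2 and 306 to 337 in the melatonin libraries. Amn, an endocytic receptor subunit of visceral endoderm, was at 42.03 and 44.1 FPKM against 4.65, 4.85 and 2.94 (-3.12 ± 0.79), and Srgn, a proteoglycan, at 28.9 and 19.9 against 3.02, 5.34 and 8.52 (-2.001 ± 0.44). For both genes the groups were far apart. The basement membrane genes were not: laminin Lama1 was at 4.96 and 24.2 against 8.53, 5.83 and 10.7 FPKM, and Lamc1 at 5.76 and 28.7 against 9.72, 9.88 and 13.6, with fresh replicate 2 highest. The transcription factor Gata6 was at 9.96 and 22.9 against 25.99, 16.99 and 19.4 FPKM with overlap, while Sox17, at 1.38 and 1.004 against 1.56, 4.61 and 1.85, lay above both fresh libraries.

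Of 30 trophectoderm genes, 11 (36.7%) lay above and 4 (13.3%) below both fresh libraries, against 20.8% and 13.5% of all genes. The list median was 0.29 (0.23 and 0.28; 0.17 without melatonin replicate 1). Gata3, which acts beside Cdx2, was at 67.3 and 78.2 FPKM in the fresh and 112, 114 and 104 in the melatonin libraries (0.59 ± 0.18). Lrp2, an endocytic receptor on both the trophectoderm and primitive endoderm lists, was at 2.57 and 6.34 against 13.6, 8.62 and 9.498 FPKM (1.15 ± 0.34). Cdx2 was at 22.2 and 18.6 against 26.99, 24.2 and 21.9 FPKM and overlapped. Elf5, a factor of the trophoblast lineage, lay below, at 16.2 and 15.8 against 10.3, 7.58 and 10.6 FPKM (-0.71 ± 0.23).

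Genes that seal and fill the blastocoel had a median of 0.28 (0.56 against fresh replicate 1 and 0.03 against replicate 2; 0.16 without melatonin replicate 1). Of 34, 10 (29.4%) lay above and 4 (11.8%) below both, against 20.8% and 13.5% of all genes. Gja1, the gap junction protein connexin 43 (chromosome 10, 56377330 to 56402513), was at 9.697 and 29.7 FPKM in the fresh and 66.3, 77.4 and 77.8 in the melatonin libraries (2.04 ± 0.36). Aqp9, a water and glycerol channel, was at 7.17 and 7.73 against 14.97, 20.4 and 18.1 FPKM (1.15 ± 0.24). Its fresh libraries were near equal and below every melatonin library. The adherens junction protein Cdh1 was at 16.1 and 60.6 against 103, 70.04 and 63.6 FPKM, with melatonin replicate 3 close to fresh replicate 2. Below both fresh libraries lay the tight junction proteins Cldn4 (979 and 876 against 713, 702 and 814 FPKM) and Cldn6 (46.2 and 32.2 against 24.4, 12.5 and 23.1).

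For hatching and implantation, 10 of 21 genes (47.6%) lay above and 2 below both fresh libraries, against 20.8% and 13.5% of all genes. The list median was 0.38 (0.52 and 0.11; 0.07 over all listed genes with no filter). Spp1, or osteopontin, an integrin ligand of attachment (chromosome 5, 104435118 to 104441050), was at 53.03 and 109 FPKM in the fresh and 259, 179 and 255 in the melatonin libraries (1.57 ± 0.30). The integrin subunit Itgb5 was at 1.803 and 4.89 against 5.96, 8.53 and 6.24 FPKM (0.95 ± 0.30), and Plat, the tissue plasminogen activator, at 3.56 and 6.05 against 8.18, 11.96 and 10.7 (0.98 ± 0.24). All 3 genes lay above both fresh libraries and further above replicate 1. Below lay Plet1, a surface protein of trophoblast, at 154 and 80.9 against 35.2, 51.02 and 64.5 FPKM, and Lifr, the receptor of leukemia inhibitory factor, at 1.95 and 2.19 against 0.621, 0.627 and 0.545. Lifr thus passed the filter only through libraries other than those with melatonin.

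**Figure D4:**
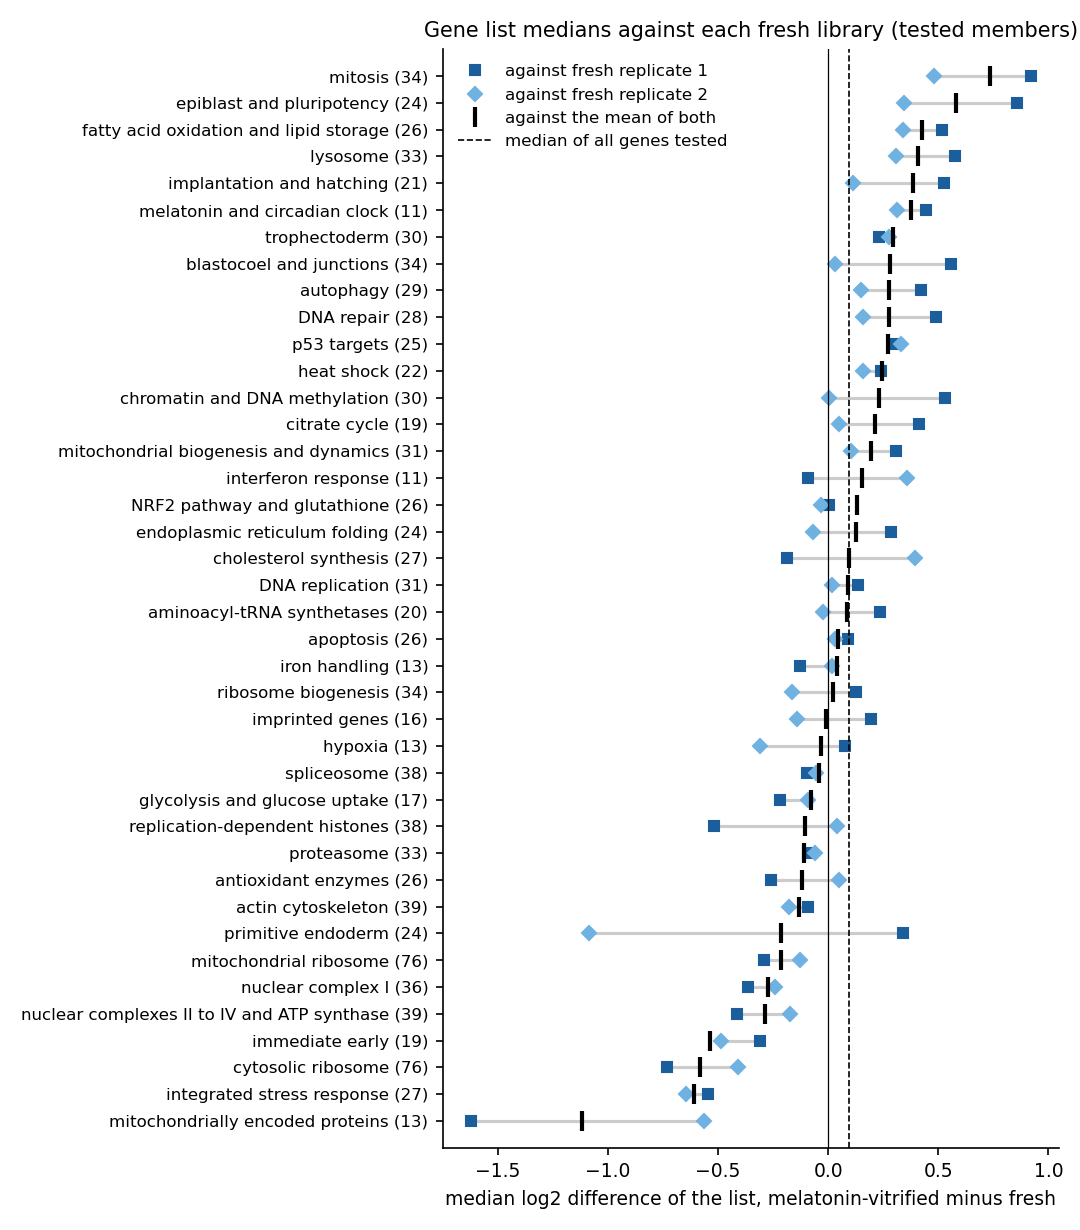
Median log2 difference of each gene list, melatonin-vitrified minus fresh replicate 1 (squares), fresh replicate 2 (diamonds) and the mean of both (bars), with the number of tested members in brackets and the median of all genes (0.09) as a dashed line. Mitosis lies highest at 0.73 and mitochondrially encoded proteins lowest at -1.12, and primitive endoderm has the widest gap across 0, from 0.34 to -1.09.

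Lipid droplets are a fuel store of the embryo. In fatty acid oxidation and lipid storage, 15 of 26 (57.7%) lay above and 2 below both fresh libraries, against 20.8% and 13.5% of all genes. The list median was 0.43 (0.52 and 0.34). Plin2, which coats lipid droplets, was at 69.4 and 69.7 FPKM in the fresh and 106, 141 and 121 in the melatonin libraries (0.80 ± 0.18). Cpt1a, the gate of fatty acids into mitochondria, was at 1.65 and 3.64 against 9.83, 9.61 and 4.68 FPKM (1.31 ± 0.34). Neither gene overlapped. In the citrate cycle 7 of 19 (36.8%) lay above and 1 (5.26%) below, with a median of 0.21 (0.41 and 0.05; 0.10 with median-ratio scaling). In glycolysis 1 of 17 lay above and 4 below, with a median of -0.08 (-0.22 and -0.09; -0.18 and -0.20 with the scalings), and Ldha, which makes lactate, was at 46.2 and 38.2 against 22.1, 19.7 and 16.8 FPKM (-1.07 ± 0.31). Cholesterol synthesis had a median of 0.10 that changed sign with both scalings (-0.19 against fresh replicate 1 and 0.39 against replicate 2).

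Lysosomes break down material delivered by autophagy and endocytosis. Of 33 lysosomal genes, 19 (57.6%) lay above and 2 below both fresh libraries, against 20.8% and 13.5% of all genes. The list median was 0.41 (0.57 and 0.31). Laptm4b, a lysosomal membrane protein, was at 31.01 and 39.4 FPKM in the fresh and 64.4, 122 and 65.8 in the melatonin libraries (1.18 ± 0.27), and the protease Ctsd at 72.6 and 86.2 against 149, 158 and 118 (0.82 ± 0.21). In autophagy 13 of 29 (44.8%) lay above and 2 below, with a median of 0.28 (0.42 and 0.15), and Atg9a, which supplies membrane to autophagosomes, was at 0.525 and 1.01 against 1.97, 3.48 and 3.36 FPKM. The proteasome was mixed, with 6 of 33 above, 10 below and a median of -0.11 (-0.09 and -0.06) that was 0.06 with quantile normalization. Its regulatory subunit Psmd1 was at 30.5 and 31.8 against 40.9, 53.8 and 42.4 FPKM.

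Counts above fresh exceeded those below among chaperones and DNA repair genes, as they did among all genes (20.8% above and 13.5% below). Of 22 heat shock genes, 10 (45.5%) lay above and 2 below both fresh libraries, with a median of 0.24 (0.24 and 0.16). With median-ratio scaling 7 lay above and 3 below, and the median was 0.14. Bag3, a cochaperone of Hsp70 in protein quality control, was at 10.7 and 20.3 FPKM in the fresh and 57.3, 37.98 and 39.7 in the melatonin libraries (1.52 ± 0.36), while the vitrified libraries without melatonin were at 22.3, 10.6 and 21.4. Hspa4 was at 30.7 and 37.7 against 57.6, 63.7 and 47.7 FPKM, and the small heat shock protein Hspb1 lay below at 61.3 and 35.3 against 27.6, 16.9 and 20.8. In DNA repair 13 of 28 (46.4%) lay above and 1 below, with a median of 0.28 (0.49 and 0.16; 0.15 with quantile normalization). Xrcc1, a scaffold of single-strand break repair, was at 4.29 and 4.22 against 7.704, 8.85 and 7.12 FPKM (0.75 ± 0.20). DNA replication genes had a median of 0.09 (0.14 and 0.02), the same as all genes, which was -0.02 with median-ratio scaling and -0.04 without melatonin replicate 2, with 5 of 31 above and 4 below. Ccne1, the cyclin of S phase entry, was at 30.6 and 22.1 against 12.4, 18.7 and 14.4 FPKM (-0.76 ± 0.23).

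Antioxidant enzymes, which the study also set out to stain for, had no common direction. Of 26, 3 (11.5%) lay above and 5 (19.2%) below both fresh libraries, against 20.8% and 13.5% of all genes. The list median was -0.12 (-0.26 and 0.05; -0.23 with median-ratio scaling). Sod1, the cytosolic superoxide dismutase, was at 30.4 and 23.2 FPKM in fresh and 24.5, 24.8 and 22.4 in melatonin libraries, and Sod2, its mitochondrial form, at 265 and 198 against 174, 242 and 235. Catalase, which breaks down hydrogen peroxide, was at 15.9 and 14.4 against 26.9, 28.04 and 16.97 FPKM (0.60 ± 0.25), with every melatonin library above both fresh ones. The glutathione peroxidases Gpx1 (71.3 and 49.1 against 48.5, 58.98 and 52.4 FPKM) and Gpx4 (92.8 and 48.6 against 48.3, 51.6 and 52.7) and the peroxiredoxin Prdx1 (233 and 290.4 against 203, 252 and 255) overlapped. The mitochondrial thioredoxin Txn2 lay below, at 57.1 and 41.7 against 32.9, 30.5 and 36.8 FPKM (-0.54 ± 0.19). In the NRF2 pathway, which controls many of these genes, 5 of 26 lay above and 6 below, with a median of 0.13 for the group (0.03 with median-ratio scaling) and of 0.00 and -0.03 against the single fresh libraries. Its factor Nfe2l2 was at 32.9 and 23.8 against 36.9, 38.3 and 34.1 FPKM (0.37 ± 0.23), the heme oxygenase Hmox1 at 23.95 and 22.9 against 18.7, 11.98 and 16.8 (-0.56 ± 0.21), and Ugdh, a glucuronate pathway enzyme, at 17.7 and 12.8 against 27.2, 22.5 and 21.5. Nqo1, a quinone reductase, was below 2 FPKM in all 5 libraries. In iron handling 3 of 13 (23.1%) lay above, near the 20.8% of all genes, and 1 below. The median of 0.04 (-0.13 and 0.02) changed sign with both scalings. The iron reductase Steap3 was at 0.587 and 0.723 against 1.97, 2.84 and 2.51 FPKM. It passed the filter only through the vitrified and melatonin libraries.

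Of 26 apoptosis genes, 21 overlapped, 3 lay above and 2 below both fresh libraries (11.5% and 7.69%, against 20.8% and 13.5% of all genes). The list median of 0.04 (0.09 and 0.03) changed sign with both scalings and without melatonin replicate 3 (-0.05). Casp6, an executioner caspase, was at 23.2 and 26.9 FPKM in the fresh and 31.3, 44.4 and 33.6 in the melatonin libraries, and the pore-forming Bax at 171 and 107 against 110.2, 105 and 93.4. Bcl2, at 0 and 0.120 FPKM in the fresh libraries and 0 in all melatonin libraries, was too low to be tested, as was the mitochondrial coactivator Ppargc1a, listed at 0 in all 5. Among p53 targets 8 of 25 (32.0%) lay above and 1 below, with a median of 0.27 (0.29 and 0.33; 0.47 with a pseudocount of 0.1). With median-ratio scaling 5 lay above and 2 below, and with quantile normalization 4 and 2. Perp, a desmosome protein and p53 target, was at 43.8 and 48.8 against 80.6, 168 and 132 FPKM (1.37 ± 0.28), and its vitrified libraries at 170.0, 118 and 127. Trp53 itself was at 10.5 and 11.5 against 10.1, 11.01 and 8.604 FPKM and overlapped. Without such scaling, the 1 p53 target below both was Gadd45b, at 14.5 and 13.7 against 5.75, 4.17 and 4.25 FPKM.

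Among 11 tested genes of melatonin signalling and the circadian clock, 4 (36.4%) lay above and 0 below both fresh libraries. Of all genes, 20.8% lay above and 13.5% below. The median of the list was 0.38 (0.44 and 0.31). With quantile normalization 2 of the 11 lay above, and the median was 0.23. Cry1, a repressor of the circadian loop, was at 3.02 and 6.504 FPKM in the fresh and 13, 12.02 and 9.25 in the melatonin libraries (1.17 ± 0.29). Immediate early genes, which respond rapidly to signals, numbered 9 of 19 (47.4%) below and 1 above both fresh libraries, with a median of -0.54 (-0.31 and -0.49). The phosphatase Dusp5 was at 1.78 and 1.74 against 0.0566, 0.138 and 0.344 FPKM (-1.23 ± 0.25), and Ier3 at 9.64 and 4.26 against 0.495, 0.451 and 0.626 (-2.30 ± 0.62). Both were under 1 FPKM in every melatonin library and passed the filter only through the other groups. Dusp1, another phosphatase, was at 17.1 and 23.9 against 8.87, 8.204 and 13.6 FPKM, whereas the antiproliferative Btg2 lay above, at 11.7 and 10.1 against 16.1, 13.02 and 25.96.

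The remaining lists are given by their counts above and below both fresh libraries, with the medians against fresh replicates 1 and 2. Of all genes, 20.8% lay above and 13.5% below. The actin cytoskeleton had 4 and 11 of 39 (-0.09 and -0.18), and its group median of -0.13 was 0.10 with quantile normalization. The spliceosome had 6 and 13 of 38 (-0.10 and -0.06), and chromatin and DNA methylation 7 and 1 of 30 (0.53 and 0.005). The chromatin genes above made up 23.3% of their list, near the share of all genes. In the other 7 lists the sign of the median depended on the fresh library. These were imprinted genes with 2 and 6 of 16 (0.19 and -0.14), replication-dependent histones with 0 and 7 of 38 (-0.52 and 0.04) and ribosome biogenesis with 4 and 7 of 34 (0.13 and -0.16). They also were tRNA synthetases with 4 and 0 of 20 (0.23 and -0.02), folding in the endoplasmic reticulum with 4 and 1 of 24 (0.28 and -0.07), hypoxia with 2 and 1 of 13 (0.08 and -0.31) and interferon response with 4 and 0 of 11 (-0.09 and 0.36). Among genes of mean 5 FPKM or more, the group median was -1.15 for imprinted genes and -0.54 for histones, against -0.01 and -0.11 as reported. No direction is read from these 7 lists. Gsn, an actin-severing protein, was at 12.8 and 10.2 FPKM in the fresh and 34.04, 24.6 and 23.6 in the melatonin libraries (1.17 ± 0.26). H19, an imprinted noncoding RNA of trophoblast, was at 21.2 and 6.62 against 2.49, 1.56 and 1.52 FPKM (-2.21 ± 0.59), and Dnmt3l, a cofactor of DNA methylation, at 32.6 and 36.4 against 24.7, 16.3 and 21.7 (-0.71 ± 0.21). Linker histone Hist1h1a was at 4.36 and 3.21 against 1.31, 0 and 0.882 FPKM (-1.54 ± 0.37). Each of H19, Dnmt3l and Hist1h1a lay below both fresh libraries. Other genes of smallest p in their lists lay above both: Prpf6 (0.94), Rrn3 (0.59), Mars (0.98), Kdm3a (1.10) and Stat2 (0.95), of splicing, ribosomal RNA transcription, methionine charging, histone demethylation and interferon signalling, in that order. Stat2 passed the filter only through the vitrified and melatonin libraries. Sel1l, of endoplasmic reticulum degradation, overlapped at 0.407 and 2.699 against 3.74, 3.58 and 2.55 FPKM.

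Genes of the other cell types and stages rested on few tested members. Of 6 oocyte transcripts, 2 lay above and 2 below both fresh libraries, with Zbed3 at 5.07 and 3.904 FPKM in the fresh and 1.63, 1.26 and 0.598 in the melatonin libraries (-1.37 ± 0.27). The early cleavage gene Eif1a was at 185 and 177 against 151, 159 and 151 FPKM. The steroidogenic enzyme Cyp11a1, listed as a cumulus cell gene, was at 0 and 0.0586 against 1.38, 0.696 and 1.83. The macrophage marker Cd68 was at 1.45 and 1.91 against 2.57, 3.05 and 3.904. Odf2, listed as a sperm gene, was at 3.19 and 3.92 against 8.73, 6.83 and 7.34. The fibroblast marker Vim was at 0.436 and 1.78 against 0.896, 2.16 and 0.163. These lists had 3, 1, 2 and 1 tested members. Cyp11a1 passed the filter only through the vitrified and melatonin libraries.

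Malat1, a nuclear noncoding RNA, shows how far a value can rest on 1 fresh library. It was at 11.4 and 93.4 FPKM in the fresh and 75.1, 70.3 and 94.3 in the melatonin libraries, which puts the melatonin mean 2.70 from fresh replicate 1 and -0.23 from replicate 2. The group difference was 1.23 ± 0.63.

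Blastocysts vitrified without melatonin give the level that vitrification reached on its own in these data. Limma called 93 genes (0.865%) between vitrified and fresh and 15 (0.139%, 3 higher and 12 lower) between melatonin-vitrified and vitrified, and at an unadjusted p below 0.05 it gave 2169 and 1596. The 93 calls were 7 with median-ratio scaling, 3 with quantile normalization and 1 with no filter, and the 15 were 8 with quantile normalization and 6 with a pseudocount of 0.1. Counts of calls in comparisons that share libraries were not tested against each other. For Nanog, Gja1 and Spp1 the vitrified libraries lay on the same side of fresh as the melatonin libraries, at 28.3, 31.9 and 33.3, at 85.1, 70.7 and 61.6 and at 196, 285 and 229 FPKM. Melatonin minus vitrified was 0.54, 0.03 and -0.04 for these genes, with adjusted p of 0.416, 0.968 and 0.958. Medians against fresh were 0.51 without and 0.73 with melatonin for mitosis, -0.74 and -0.61 for the integrated stress response, and -0.19 and -0.58 for the cytosolic ribosome, where both comparisons use the same fresh libraries. Y-linked transcripts were present in all 5 libraries of the melatonin and fresh groups (20.9 to 34.5 FPKM summed over 4 genes) but were at 0 in vitrified replicates 2 and 3, and their part in the melatonin against vitrified results was not tested.

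Of the 15 genes, the 3 that rose with melatonin against plain vitrification overlapped the fresh libraries. Arpc1b, which belongs to the actin-nucleating Arp2/3 machinery, was at 10.9, 9.93 and 13.9 FPKM in the vitrified and 48.97, 35.2 and 33.5 in the melatonin libraries (1.67 ± 0.19, adjusted p = 0.0172), and at 54.9 and 47.4 in fresh. mt-Atp6 was at 1348, 1826 and 1253 FPKM in the vitrified libraries (1.40 ± 0.19, adjusted p = 0.02799). The noncoding transcript Gm11100 was at 0.127, 0.0649 and 0.109 in the vitrified, 11.04, 12.1 and 14.6 in the melatonin and 14.98 and 11.95 in the fresh libraries (3.62 ± 0.18, adjusted p = 5.53e-05). For all 3 genes every vitrified library lay below every melatonin and fresh library. Against fresh, Arpc1b differed by -0.39 ± 0.21 and Gm11100 by -0.09 ± 0.21.

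Of the 12 genes that fell with melatonin against vitrification, Hk2, the hexokinase that traps glucose, was at 82.2, 97.5 and 71.7 FPKM in the vitrified and 31.6, 28.1 and 33.2 in the melatonin libraries (-1.40 ± 0.15, adjusted p = 0.0172), and at 37.8 and 34.9 in fresh. Marcks, an actin-linked substrate of protein kinase C, was at 30.96, 39.5 and 39.7 against 8.13, 14.4 and 11.1 FPKM (-1.65 ± 0.21), with fresh at 14.7 and 13.9. The linker histones Hist1h1b and Hist1h1e fell as well (-1.86 ± 0.27 and -1.73 ± 0.25), and their fresh libraries were at 10.9 and 7.64 and at 15.8 and 10.1 FPKM against 4.71, 9.16 and 6.29 and 7.86, 4.32 and 7.19 with melatonin. Jun, an immediate early factor of AP-1, fell from 2.99, 3.84 and 2.41 to 0.176, 0.32 and 0.488 FPKM (-1.61 ± 0.21), below its fresh levels of 1.29 and 1.29. Larp4b, an RNA-binding protein, fell from 12.3, 11.2 and 11.1 to 2.21, 0.818 and 2.57 FPKM (-2.19 ± 0.29), with fresh at 4.82 and 8.54. For Jun, Larp4b and Hist1h1e all melatonin libraries were thus below fresh while all vitrified ones were above it.

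The other called genes are annotated as noncoding, pseudogenes or not yet classified (GENCODE M21). Gm42418 and Yam1 overlap on opposite strands of chromosome 17, at a locus that also holds a ribosomal RNA gene, and cannot be told apart, since the use of strand in counting is not stated (fresh 45.1 and 22.2 and melatonin 13.4, 18.9 and 14.7 FPKM for the former). Gm28791, Gm43628, Gm26518 and Vmn2r-ps20 were all below 1 FPKM in the fresh and melatonin libraries. They passed the filter only through the vitrified libraries, where they were higher, so their fall with melatonin was partly set by the filter. Of the 15 calls, 1, 8 and 1 were kept without melatonin replicate 1, 2 or 3, and 7, 5 and 4 without vitrified replicate 1, 2 or 3, while all 15 were kept without fresh replicate 1 or without fresh replicate 2.

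**Figure D5:**
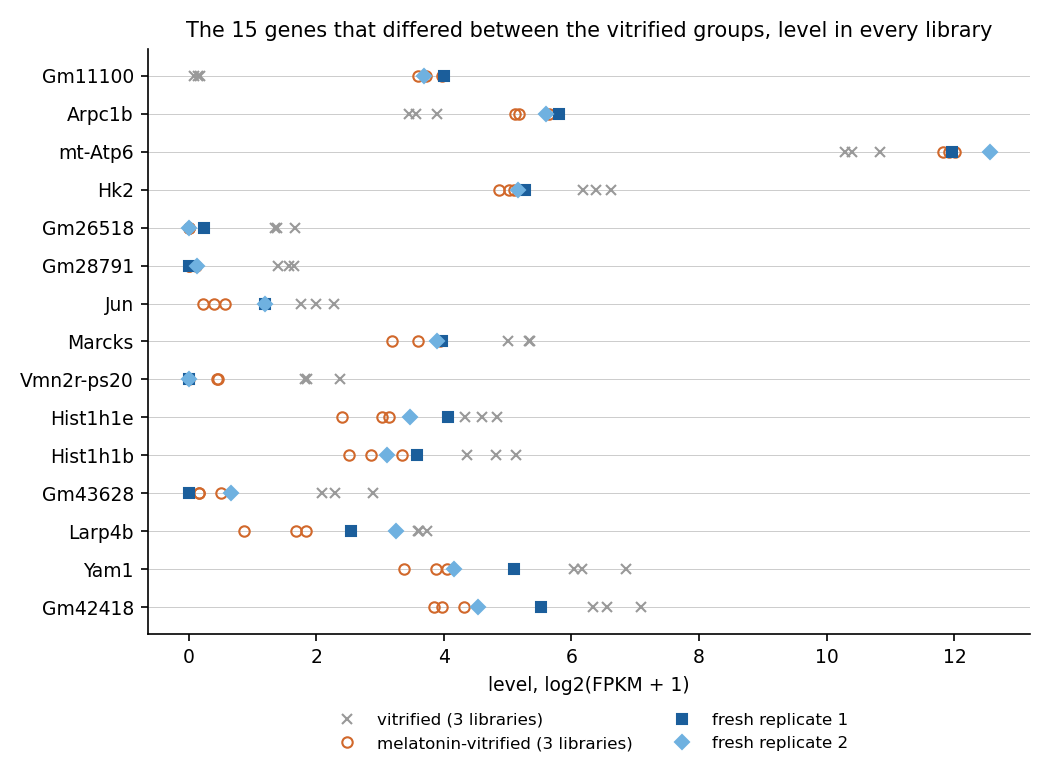
Level in log2(FPKM + 1) of the 15 genes called between melatonin-vitrified and vitrified blastocysts, with every library as a point and the symbols of the groups as in the legend. The vitrified crosses stand apart from the melatonin circles in each gene, and for Hk2 the circles (28.1 to 33.2 FPKM) lie just below the fresh points (34.9 and 37.8).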

How the data were processed

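RNA was measured in 8 libraries of mouse blastocysts (2 fresh, 3 vitrified, 3 vitrified with melatonin). The authors deposited 1 table of FPKM per gene, with mm10 as build per the labels. Aligner, counter and annotation were not given in the sources used here. In the series, the design text names Smart-seq2 while the sample protocol, per the labels, describes a stranded poly(A) library from TRIzol RNA. Estimated fragments per library (about 5800000 to 10000000) came from the steps of low FPKM values, of which 94.1% to 96.2% were whole multiples within 0.1. No column of per-sample values was unused.

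FPKM were taken as log2(FPKM + 1), with genes of at least 1 FPKM in at least 2 libraries kept, and fitted with limma 3.58.1 in R 4.3.3 (1 model of 3 groups, trended variance, Benjamini-Hochberg adjustment, two-sided). The fit was tested on simulated data. Values of a gene list are counts of members outside the fresh range and medians, with no list test. Named genes were, as none was called, the 8 per direction with the smallest p among non-provisional symbols of mean 5 FPKM or more whose groups did not overlap, the gene of smallest p in each list, and a fixed set of genes of interest. Some genes named by this rule are not reported here. Members and lists were chosen with earlier results of these data known. Gene positions are GENCODE M21 (19577 of 19688 genes matched), and promoters are RefSeq.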

Additional observations from a re-analysis of the deposited data

How the results depend on the processing

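The limits are 2 fresh libraries that differ from each other, replicates of unstated nature, and FPKM without counts. With 0 genes called between melatonin-vitrified and fresh blastocysts as reported, limma called 5 with a pseudocount of 0.1 (Naprt, Nanog, Spic, Gsc and Gm12551, all higher), 2 with only the 2 groups compared (Gm5148 higher, Amn lower), and 0 to 565 when 1 library was left out, the 565 without fresh replicate 2. Median-ratio scaling, quantile normalization, other filters, no trend, an adjusted p below 0.1 and a fold minimum gave 0. Between melatonin-vitrified and vitrified, 15 calls became 8 with quantile normalization, 6 with a pseudocount of 0.1, 68 with only those groups, and 1 to 68 with a library left out, where the 1 came without melatonin replicate 3 and the 68 without fresh replicate 2. Between vitrified and fresh, 93 calls became 7 with median-ratio scaling, 3 with quantile normalization, 1 with no filter, 11 with only those groups, and 2 to 433 with a library left out (2 without vitrified replicate 3, 433 without fresh replicate 2). The cause of these shifts was not tested.

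Correlations of deviations from the group mean ran from -0.115 to 0.121 between same-numbered libraries and from -0.12 to 0.115 between differently numbered ones. Deviations of the 2 fresh libraries mirror each other, so the check cannot settle whether libraries were paired. With the replicate block, limma called 0 genes between melatonin-vitrified and fresh, 1 between melatonin-vitrified and vitrified and 1 between vitrified and fresh.

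Values against fresh were counted once per gene and alternative setting, for 83 genes. Of these values, 1262 kept direction and stayed uncalled, as none of the 83 genes was called in the reported fit. Another 35 passed only under an alternative, and 16 changed sign. The alternatives include fits with a lone fresh library, whose spread is only assumed. Leaving out a vitrified library, changing the filter or the variance trend, or fitting only the 2 groups cannot change a difference. Direction was therefore fixed in advance for those values. Leaving out fresh libraries gave ranges of -0.19 to 0.93 for Pou5f1, -0.63 to 1.15 for Sox2, -0.15 to 0.97 for Gata6, -0.34 to 0.040 for Sod1, -0.30 to 0.12 for Sod2, -0.42 to 0.11 for Gpx1, -0.86 to 0.064 for Gpx4, -0.30 to 0.017 for Prdx1, -0.23 to 2.70 for Malat1 and -0.54 to 0.41 for Vim. Nqo1 ranged from -0.64 to 0.063 when melatonin replicates were left out. Sod2 was at 0.067 with quantile normalization, and with the replicate block Vim was at 0.15 and Nqo1 at 0.0565. Of the values of called genes against vitrified, 127 kept their call and 108 lost it. Of list medians per setting, 501 moved by less than the spread and 140 by more. The 501 include fits without a vitrified library, which cannot move a median.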
